A study of Mus musculus with 31 samples.

Results

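The genes described here pattern the dorsoventral axis of the eye and mark the optic stalk, and their RNA was measured in whole eyes of mouse embryos with and without *Ftx*, an X-linked gene for a long non-coding RNA. They were chosen by name: *Vax1*, *Vax2*, *Pax2*, *Tbx2*, *Tbx3*, *Tbx5*, *Bmp4*, *Bmp7*, *Nr2f1* and *Nr2f2*, 10 of 34832 gene names on the array. They have 15 of its 55681 probes, and 12 of the 15, at least 1 for each gene, passed the filter on dim probes and were tested. All eyes were from E13.5 embryos of the C57BL/6N background, looked normal and had their pigmented epithelial layer removed before RNA extraction. Of 20 eyes, 3 were from WT females, 3 from WT males, 3 from *Ftx*-/Y males and 11 from *Ftx*-/- females, with 2 arrays for each *Ftx*-/- eye. The mutant mice carry the *Ftx* mutation in every cell, and per the study the mutated chromosome also lacks expression of the microRNAs that lie in an *Ftx* intron. Nothing in the labels says how the eyes divide between litters, so the p-values measure the spread between these eyes.

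The dorsal part of the vertebrate optic cup is patterned by BMP4, a secreted signal, and by the T-box transcription factors that act downstream of it, Tbx5 in the dorsal retina and Tbx2 and Tbx3 in overlapping domains. The ventral retina expresses the homeobox gene *Vax2*, and the optic stalk and the closing optic fissure express *Vax1* and the paired box gene *Pax2*, under the influence of Sonic hedgehog from the ventral midline. BMP7 is needed at early steps of eye formation, and *Nr2f1* and *Nr2f2* encode the orphan nuclear receptors COUP-TFI and COUP-TFII, which are expressed in graded, partly opposite domains of the optic cup. Because whole eyes were measured, fewer cells of a type and less RNA in each cell cannot be told apart, and a shift of an expression domain inside the retina that leaves the total unchanged would not be seen.

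The *Ftx* probe A_55_P2175002 gave a signal of 101 ± 44.8 (SD, n = 3) in WT females, 106 ± 4.53 (n = 3) in WT males, 16.5 ± 2.93 (n = 3) in *Ftx*-/Y males and 21.7 ± 11 (n = 11) in *Ftx*-/- females. It was well above background on 6 of 6 WT arrays, 0 of 3 *Ftx*-/Y arrays and 9 of 22 *Ftx*-/- arrays. A dimmer *Ftx* probe, A_55_P2175007, gave 40.5 ± 15.1, 18.9 ± 4.45, 13.7 ± 6.46 and 9.78 ± 4.17 in the same groups and was clear of background on 2 of 3 WT female, 0 of 6 male and 1 of 22 *Ftx*-/- arrays, so it does not tell the male groups apart. *Cryaa*, a lens crystallin gene, was well above background in 20 of 20 eyes. On single arrays, 48.2% to 70.4% of the probe spots were well above background. The slides do not separate from genotype: slide 1 held every WT eye with *Ftx*-/Y eye 1, slide 2 held *Ftx*-/Y eyes 2 and 3 with *Ftx*-/- eyes 1 to 3, and slides 3 and 4 held *Ftx*-/- eyes 4 to 7 and 8 to 11. Slide and genotype can therefore not be told apart in females, and in males they can be only through *Ftx*-/Y eye 1.

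Several members were read by more than 1 probe, and the letters under the *Vax1* and *Pax2* probes show what was compared. Each is printed 5′ to 3′ on the strand of the transcript, from the array files, with its mm9 position. The capitals mark the stop codon that ends the reading frame of *Vax1* in the second probe.
*Vax1* A_55_P2048833, chr19:59240745-59240804, minus strand: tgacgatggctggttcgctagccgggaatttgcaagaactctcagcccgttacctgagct
*Vax1* A_55_P2116880, chr19:59240677-59240736, minus strand: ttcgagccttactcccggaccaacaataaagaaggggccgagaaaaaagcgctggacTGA
*Pax2* A_55_P2148518, chr19:44835420-44835479, plus strand: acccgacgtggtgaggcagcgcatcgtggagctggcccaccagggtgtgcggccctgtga
*Pax2* A_55_P2075127, chr19:44909895-44909954, plus strand: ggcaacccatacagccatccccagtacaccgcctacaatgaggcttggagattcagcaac
The *Vax1* probes lie 8 bases apart in the last coding stretch of the gene. The first *Pax2* probe covers part of the paired box, with 70% G and C, and the second, with 55% G and C, covers coding sequence further 3′. Both *Vax1* probes and the second *Pax2* probe were tested, and the paired box probe was too dim.

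In females, 3 of 12 member probes (25%) differed between *Ftx*-/- and WT eyes at an adjusted p under 0.05 in limma, and 29.5% of all 29558 tested probes did. All 3 were higher in *Ftx*-/- eyes: *Vax2*, *Nr2f2* and 1 of 2 probes of *Nr2f1*. Among all tested probes, 15.7% were higher and 13.8% were lower. The members' share thus lay close to the background, and nothing here sets them apart from the other genes on the array. Their median log2 fold change was 0.12, beside 0 for all tested probes, with single probes from -0.28 to 0.36. The median size of the log2 fold change, sign left out, was 0.16 for the member probes and 0.26 for all probes. With the fold limits of the study's methods (over 1.2 or under 0.8, with an unadjusted p under 0.05) applied to limma's p, 2 of 12 member probes passed, *Vax2* and *Nr2f2*, against 31.8% of all probes. With the unequal-variance test that the methods name, 1 did, *Vax2*, against 24% of all probes.

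**Figure D1:**
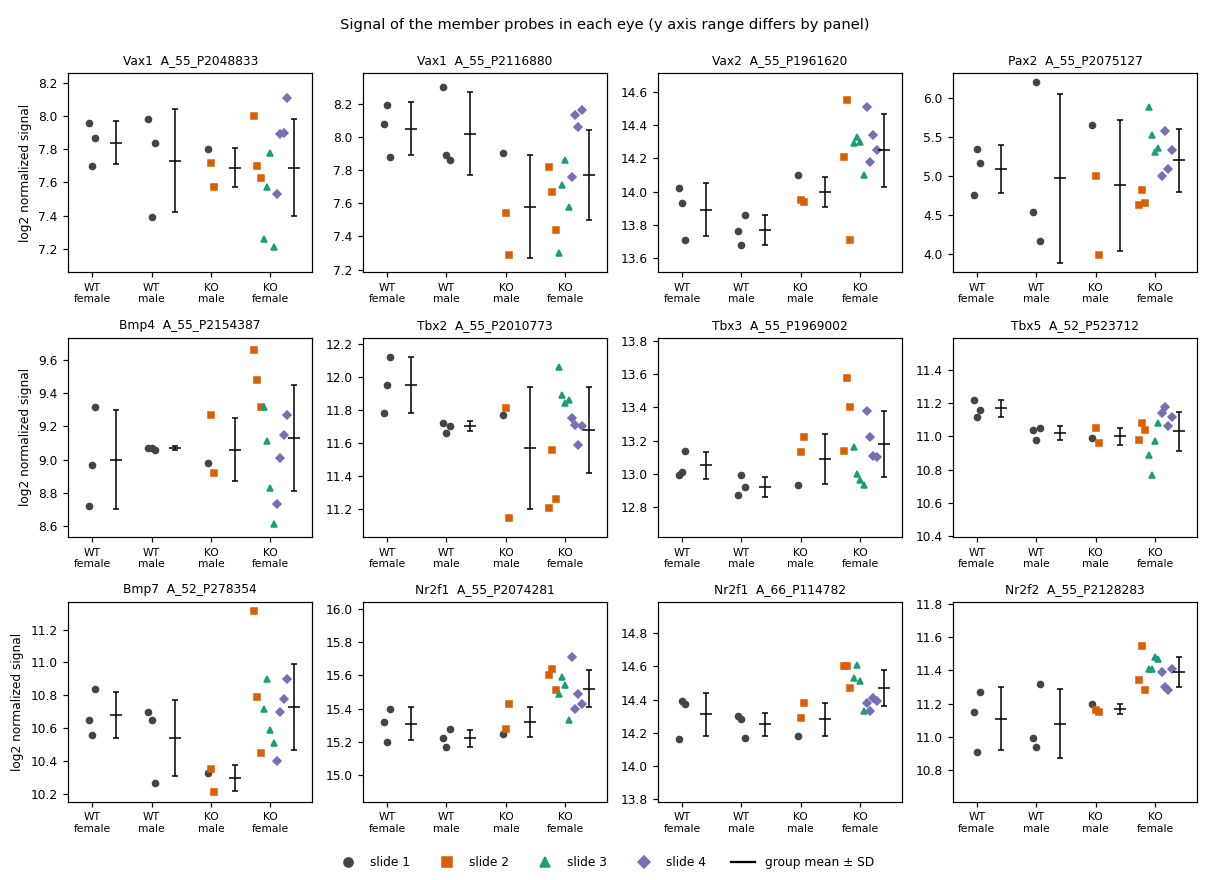
Log2 normalized signal (y axis, its range set for each panel) of the 12 tested member probes in each of 20 eyes, by group (x axis); the colour and shape of a point give its slide, and the bars beside the points give the group mean ± SD. The 11 *Ftx*-/- eyes (KO female) lie above all WT female eyes for *Nr2f2*, 10 of them do for *Vax2*, and for most other members the groups share a range.

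*Vax2*, which specifies ventral retina, had signals of 16600, 15600 and 13400 in WT female eyes 1, 2 and 4. In the 11 *Ftx*-/- eyes its signal ran from 13400 in eye 3 to 24100 in eye 2, with a median of 20100. Of these eyes, 10 were above every WT female eye, and eye 3 was level with the lowest of them, WT eye 4, at the digits shown. The log2 fold change was 0.36 with a standard error of 0.118 and a 95% interval of 0.12 to 0.61, a fold of 1.29 (limma, adjusted p = 0.0256). In males, *Vax2* measured 13900, 13100 and 14800 in the WT eyes and 17600, 15800 and 15700 in the *Ftx*-/Y eyes. The male groups did not overlap, as was so for 1 of 12 member probes (8.33%) and for 22% of all tested probes. The male log2 fold change of 0.23 (95% interval -0.08 to 0.54) did not pass (limma, adjusted p = 0.511). *Ftx*-/Y eye 1, the mutant eye that shared slide 1 with the WT eyes, was 0.33 above the WT male mean in log2 signal, where the SD of the WT males was 0.09.

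*Nr2f2*, which encodes COUP-TFII, had signals of 2280, 1920 and 2480 in the WT female eyes and between 2490 and 3010 (median 2710) in the *Ftx*-/- eyes. Every mutant eye was above every WT eye, though the lowest of them by little. In this comparison 1 of 12 member probes (8.33%) had groups that did not overlap, and 17.3% of all tested probes did. The log2 fold change was 0.28 ± 0.0804 (SE), with a 95% interval of 0.11 to 0.45 (limma, adjusted p = 0.0133). The spread was narrow in mutants: the SD over the 11 eyes was 0.088 in log2 signal, smaller than that of all but 6.02% of the tested probes. WT male eyes measured 2030, 1960 and 2560, and *Ftx*-/Y eyes 2350, 2300 and 2270. The male values lay inside the range of the WT eyes, with a log2 fold change of 0.09 and a 95% interval of -0.12 to 0.3 (limma, adjusted p = 0.74).

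*Nr2f1*, which encodes COUP-TFI, was read by a pair of probes. At A_55_P2074281 the WT female eyes had signals of 40900, 37600 and 43400, and the *Ftx*-/- eyes ran from 41200 to 53600 with a median of 46500. Of the 11 mutant eyes, 9 were above all WT female eyes and none was below the WT mean. The log2 fold change was 0.21 ± 0.0694 (SE; limma, adjusted p = 0.0266). At A_66_P114782, which lies nearer the 3′ end of the transcript, the difference had the same sign at 0.16 ± 0.071 (SE) and did not pass (limma, adjusted p = 0.0922). In males both probes gave small values, 0.1 (95% interval -0.08 to 0.28) and 0.03 (95% interval -0.16 to 0.22).

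The calls for *Vax2*, *Nr2f1* and *Nr2f2* depended on the slides and on the WT female eyes. With the slide as a random block (correlation 0.285) their log2 fold changes were 0.38, 0.2 and 0.29, with adjusted p-values of 0.106, 0.144 and 0.0742 in limma, so that 0 of 12 member probes passed. With the slide as a fixed block, which the *Ftx*-/Y eyes alone make possible, they were 0.42, 0.17 and 0.32 (limma, adjusted p = 0.522, 0.662 and 0.469), and 0.156% of all probes were left past the threshold. The number also fell to 0 without WT female eye 2, where the log2 fold changes were 0.39, 0.16 and 0.18 and their adjusted p-values 0.065, 0.178 and 0.154. Without eye 1, *Nr2f1* did not pass (0.22; limma, adjusted p = 0.0839), and without eye 4, *Vax2* did not (0.28; limma, adjusted p = 0.143), while *Nr2f2* passed in both cases. Against WT females, *Vax2* was higher by 0.27, 0.37 and 0.43 in the *Ftx*-/- eyes of slides 2, 3 and 4, *Nr2f1* A_55_P2074281 by 0.28, 0.18 and 0.2, and *Nr2f2* by 0.28, 0.33 and 0.23, all in log2 signal. Their direction was thus shared by the 3 slides, each of which differs from the slide of the WT eyes. All 3 differences were taken from the same WT female eyes, so they are not independent of each other. An offset of the slide of the WT eyes would enter each of them alike. That slide was also scanned on another day than slides 2, 3 and 4, so scan day and genotype cannot be told apart in females either.

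**Figure D2:**
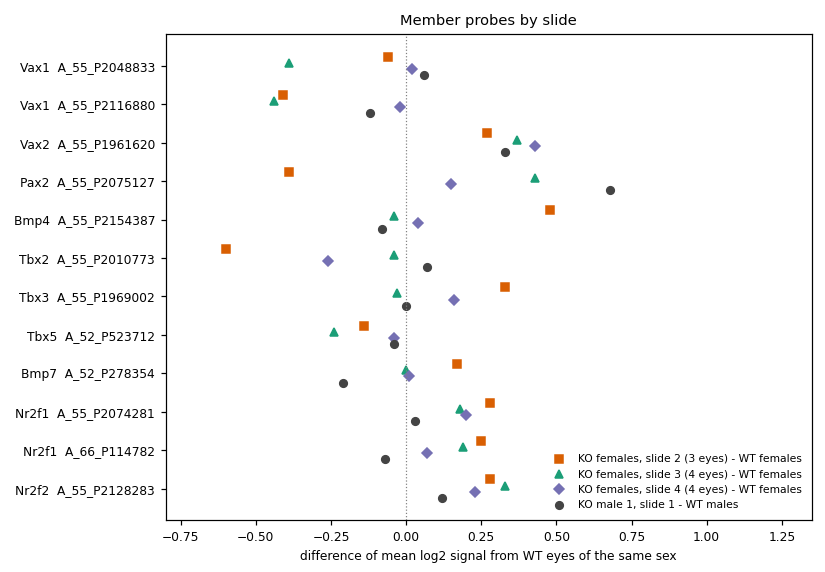
Difference of mean log2 signal (x axis) from the WT eyes of the same sex for each tested member probe (rows); squares, triangles and diamonds are the *Ftx*-/- females (KO females) of slides 2, 3 and 4 (3, 4 and 4 eyes), and circles are *Ftx*-/Y eye 1, the mutant eye on the slide of the WT eyes. *Vax2*, *Nr2f1* and *Nr2f2* lie to the right of 0 on slides 2, 3 and 4, whereas *Tbx2* lies at -0.6 on slide 2 and at -0.04 on slide 3.

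*Nr2f1* and *Nr2f2* are paralogues whose probes were both higher in *Ftx*-/- females, so the 250 bases before a start of each gene are shown, for *Nr2f1* the first of the 2 starts held, from RefSeq (GRCm38.p6), in lower case because they hold none of the motifs searched.
*Nr2f2*, chr7:70366747-70366996, minus strand: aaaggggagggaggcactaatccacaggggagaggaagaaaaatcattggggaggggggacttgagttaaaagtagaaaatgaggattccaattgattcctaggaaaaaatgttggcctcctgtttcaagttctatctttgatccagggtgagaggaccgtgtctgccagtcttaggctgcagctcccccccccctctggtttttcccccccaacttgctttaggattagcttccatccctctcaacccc
*Nr2f1*, chr13:78198874-78199123, minus strand: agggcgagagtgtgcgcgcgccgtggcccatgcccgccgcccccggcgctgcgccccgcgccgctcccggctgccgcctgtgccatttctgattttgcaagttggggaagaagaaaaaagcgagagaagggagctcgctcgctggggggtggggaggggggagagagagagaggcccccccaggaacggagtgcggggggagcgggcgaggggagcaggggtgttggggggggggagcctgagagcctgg
The window before *Nr2f2* has 50% G and C, and those before the 2 starts of *Nr2f1* have 72% and 39.6%. The motifs, searched on both strands, were AGGTCA (the half-site of nuclear receptors), TAATTA (bound by homeodomains), GGTGTGA (the T-box half-site) and GTCTAGAC (bound by Smads). In the 8 windows held for *Nr2f1*, *Nr2f2*, *Bmp4*, *Pax2* and *Vax1*, the first 3 motifs had no match, and they occur in 14%, 4.84% and 3.33% of all 32851 windows. GTCTAGAC occurs in 0.167% of all windows and in 1 of the 3 before *Pax2*.

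The remaining ventral and stalk genes did not pass the test in either sex. *Vax1*, a regulator of optic stalk and fissure development, had signals of 271, 293 and 235 in WT female eyes at A_55_P2116880 and of 158 to 286 (median 217) in *Ftx*-/- eyes. Of the mutant eyes, 8 were below every WT female eye and none was above all of them. The log2 fold change was -0.28 with a 95% interval of -0.63 to 0.07 (limma, adjusted p = 0.221). In males the same probe measured 316, 237 and 233 in WT eyes and 238, 187 and 156 in *Ftx*-/Y eyes, with a log2 fold change of -0.44 ± 0.211 (SE). Its unadjusted p of 0.0491 made it the single member probe of 12 under 0.05 in males, as were 13.4% of all tested probes (limma, adjusted p = 0.371). With limma's p it was also the 1 member within the fold limits of the methods, which 10.5% of all probes met in males. The other *Vax1* probe, 8 bases upstream, gave -0.15 (95% interval -0.5 to 0.2) in females and -0.04 (95% interval -0.47 to 0.4) in males. *Ftx*-/Y eye 1, on the slide of the WT eyes, differed from the WT male mean by -0.12 and 0.06 at these probes, within the SDs of the WT males, 0.25 and 0.31.

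*Pax2*, which marks the optic stalk and later the astrocyte precursors of the optic nerve head, was close to background in these eyes. Its tested probe, A_55_P2075127, was well above background in 3 of 3 WT female eyes, 1 of 3 WT male eyes, 2 of 3 *Ftx*-/Y eyes and 6 of 11 *Ftx*-/- eyes. The signals were 34.6 ± 6.95 (SD, n = 3), 38.3 ± 30.6, 32.6 ± 17.1 and 38.0 ± 10.4 (n = 11) in these groups. The SD of a single array, taken from the 2 arrays of each *Ftx*-/- eye, was 0.401 in log2 signal. Between eyes, each averaged over its 2 arrays and so less noisy than 1 array, the SD was 0.396. The corresponding values for *Vax2* were 0.056 and 0.224. The log2 fold change in females was 0.1 with a 95% interval of -0.66 to 0.87, so a change of *Pax2* within these bounds was not detectable here. The paired box probe was clear of background on 2 arrays of WT females, of 3, and on 2 of 22 *Ftx*-/- arrays. The last probe, A_55_P2075125, did so on 1 and 5 of them.

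None of the dorsal genes passed the test. *Tbx5*, the T-box gene of the dorsal retina, had signals of 2390, 2220 and 2290 in WT female eyes and of 1740 to 2320 (median 2140) in *Ftx*-/- eyes. Of the mutant eyes, 8 were below every WT eye, with a log2 fold change of -0.14 ± 0.0697 (SE; limma, adjusted p = 0.132). In males its log2 fold change was -0.02 with a 95% interval of -0.21 to 0.16, one of the narrowest intervals among the members. *Tbx2* had signals of 3510, 3950 and 4440 in WT female eyes and of 2370 to 4280 (median 3350) in *Ftx*-/- eyes, and the log2 fold change was -0.27 with a 95% interval of -0.59 to 0.05 (limma, adjusted p = 0.185). Its value in females differed between slides: against WT females it was -0.6 on slide 2, -0.04 on slide 3 and -0.26 on slide 4. In males, *Ftx*-/Y eyes 2 and 3, both on slide 2, measured 3590 and 2270, the highest and the lowest of the *Ftx*-/Y eyes, and eye 1 on slide 1 measured 3480. *Tbx3* had a log2 fold change of 0.14 (95% interval -0.09 to 0.36) in females and 0.17 (95% interval -0.11 to 0.44) in males. It too differed by slide, with 0.33 on slide 2 and -0.03 on slide 3.

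*Bmp4*, the ligand upstream of the dorsal T-box genes, had signals of 423 to 638 (median 501) in WT females and 390 to 808 (median 568) in *Ftx*-/- females at A_55_P2154387. Its log2 fold change was 0.13 with a 95% interval of -0.23 to 0.49 (limma, adjusted p = 0.599), and -0.01 in males (95% interval -0.47 to 0.45). Against WT females this probe was at 0.48 on slide 2, -0.04 on slide 3 and 0.04 on slide 4. The second *Bmp4* probe, with 15% G and C, was well above background on 0 of 31 arrays. *Bmp7* measured 1610, 1510 and 1830 in WT female eyes and 1350 to 2540 (median 1690) in *Ftx*-/- eyes, with a log2 fold change of 0.05 (95% interval -0.24 to 0.34). In males it measured 1660, 1600 and 1240 in WT eyes and 1290, 1310 and 1180 in *Ftx*-/Y eyes, and the log2 fold change was -0.24 (95% interval -0.61 to 0.12).

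**Figure D3:**
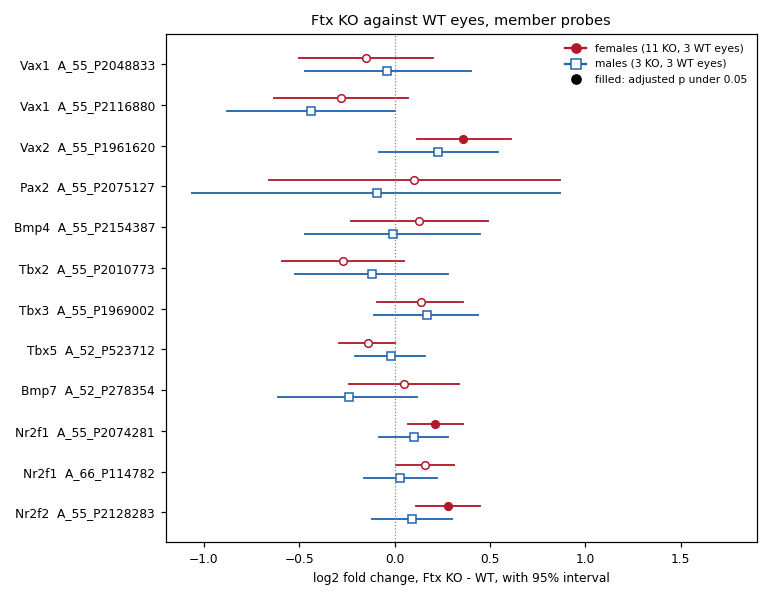
Log2 fold change of *Ftx*-deficient over WT eyes (x axis) with its 95% interval from limma for the 12 tested member probes (rows), in females (circles, 11 and 3 eyes) and males (squares, 3 and 3 eyes); filled symbols have an adjusted p under 0.05. *Vax2*, *Nr2f2* and *Nr2f1* A_55_P2074281 are filled in females, no symbol is filled in males, and *Pax2* has the widest intervals.

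In males no member probe passed, and neither did any of the 29558 tested probes (0%), of which 3967 had an unadjusted p under 0.05. Leaving out 1 eye at a time, 0 to 720 of all probes passed in males, the 720 (2.44%) without WT male eye 3, and no member did. The methods' unequal-variance test with its fold limits called 0 member probes and 1766 of all probes in males, and none of either after Benjamini-Hochberg adjustment. The difference between the change in females and the change in males was tested by itself. It passed for no member and for 0% of all probes, and an unadjusted p under 0.05 was found for 0 of 12 member probes and 12% of all. The smallest p among the members was 0.15 for *Nr2f2*, with a difference of 0.19 (95% interval -0.08 to 0.46; limma, adjusted p = 0.564). For *Vax2* the difference was 0.13 with a 95% interval of -0.26 to 0.53, an interval that holds both 0 and the change in females itself. Between WT females and WT males 0 of 12 member probes passed, beside 0.382% of all probes, and 0 of 12 had an unadjusted p under 0.05, beside 11.5% of all. The largest difference among the members there was 0.25 for *Tbx2* (95% interval -0.15 to 0.65).

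Other genes of the same pathways were followed in lists. In the BMP pathway list, 13 of 32 tested probes rose and 1 fell in *Ftx*-/- females (43.8% called, median 0.12), where 29.5% of all tested probes were called. *Bmp2*, a ligand, went from 83.3 ± 28.1 to 147 ± 26.1 (log2 fold change 0.86; limma, adjusted p = 0.00248), and *Bmpr1b*, a type I receptor, from 220 ± 24.9 to 337 ± 90.7 at 1 of its 2 probes (0.58). *Smad9*, a receptor-activated Smad, rose by 0.7 and *Smad7*, an inhibitory Smad, by 0.58, whereas *Smad6*, another inhibitory Smad, fell by 0.29. The target genes *Id1* and *Id3* did not pass, with log2 fold changes of -0.13 and -0.01, while *Id2* rose by 0.4. No probe of the list passed in males.

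In the Sonic hedgehog list, 5 of 27 probes rose and 3 fell (29.6% called, median -0.02), a share next to the 29.5% of all tested probes. The co-receptors *Boc* and *Lrp2* rose by 0.87 and 0.6, the second at 1 of 2 probes (0.32 at the other; limma, adjusted p = 0.181). For the receptor gene *Ptch1*, which is also a target of the pathway, 1 probe, clear of background on 1 of the 3 arrays of WT females, rose by 2.36 from a signal of 19.3, a change of uncertain size, and another fell by 0.74 from 451, and for *Smo* 1 probe fell by 1.3 while the brighter one was at -0.02. *Gas1*, another co-receptor gene, fell by 0.78 at 1 of 3 probes. Neither probe of the target gene *Gli1* passed (-1.01 and -0.33; limma, adjusted p = 0.103 and 0.284). Where probes of 1 gene differ in this way, the data give no direction for the gene.

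Among the genes listed as readouts of the retinal axes, 9 of 22 probes rose and 4 fell (59.1% called, median 0.1; 29.5% among all tested probes). The Eph receptor genes *Epha5* and *Ephb3* rose by 1.14 and 0.97, the first at 2 of 3 probes, and *Ephb2* fell by 0.56. The ephrin gene *Efnb1* fell by 0.31, and *Efnb2* rose by 0.56 at 1 probe and fell by 0.5 at the other. *Hmx1* fell by 0.48, and the retinoic acid synthesis gene *Aldh1a2* rose by 1.54, from 175 ± 96.5 to 530 ± 411. Which tissue of the eye the *Aldh1a2* RNA came from was not tested. The winged helix gene *Foxd2* passed as well, but 1 of the 3 WT female arrays measured its probe well above background, so the size of its change is uncertain. *Aldh1a1*, the dorsal retinal enzyme of retinoic acid synthesis, was at -0.01 and its ventral counterpart *Aldh1a3* rose by 0.45, from 8670 to 11900. In the stalk and fissure list, 2 of 18 probes rose and 3 fell (27.8% called, median -0.08), a share just under the 29.5% of all tested probes. *Ntn1*, which encodes netrin 1, rose by 1.71, with 1 of the 3 WT female arrays not well above background, whereas *Pax6*, at 1 of 2 probes, *Fgf8*, at 1 of 2, and *Lmo2* fell by 0.91, 0.53 and 0.41.

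Markers of the retina and of the tissues next to it were followed in the same comparison. Of all tested probes 29.5% were called there, 15.7% higher and 13.8% lower. The share called was 74.2% for lens, 61.5% for periocular mesenchyme and 43.8% for retinal neurons. For red blood cells it was 30.8% and for retinal progenitors 23.1%. Surface ectoderm, pigment cells, muscle and endothelium had 18.2%, 14.3%, 12.5% and 7.69%. The shares from red blood cells on lay near or under that of all probes. Of 31 lens probes 23 fell and none rose, and the summed lens signal was 0.953 to 1.04 in WT females and 0.67 to 0.93 in *Ftx*-/- females, relative to the WT female mean. Of 13 probes of periocular mesenchyme 8 rose and none fell, with a summed signal of 0.808 to 1.13 in WT females and 1.18 to 9.12 in *Ftx*-/- females. Pigment cell markers, at 0.966 to 1.03 and 0.866 to 2.44, rose at 2 of 14 probes, and the pigment marker *Tyrp1* (288 ± 68.2 in WT females) and the mesenchyme marker *Col1a1* (236 ± 126) were well above background in 20 of 20 eyes. In males, where no probe of these lists passed, the lens sum was 0.938 to 0.993 in WT and 0.91 to 0.983 in *Ftx*-/Y eyes and the mesenchyme sum 1.14 to 2.6 and 1.08 to 1.97. The male groups did not overlap in the sums of red blood cells, at 0.901 to 1.1 in WT and 1.22 to 2.05 in *Ftx*-/Y eyes, and of pigment cells, at 1.22 to 1.41 and 0.869 to 1.08, with median log2 fold changes of 0.91 and -0.54 over their probes. Among single probes, 22% of all those tested had male groups that did not overlap. Of 13 probes of retinal progenitors 2 rose and 1 fell in *Ftx*-/- females, with a sum of 0.931 to 1.04 in WT females and 0.901 to 1.17 in mutants, and of 13 probes of red blood cells 4 rose and none fell (0.938 to 1.04 and 0.893 to 1.5). Of 16 probes of retinal neurons 5 fell, those of *Tubb3* (-0.46), *Pou4f1* (-0.33), *Atoh7* (-0.32) and *Elavl3* (-0.31) and 1 of 3 of *Dcx* (-0.41), and 2 rose, those of *Isl1* (0.33) and 1 of 2 of *Elavl4* (0.4). The ganglion cell marker *Pou4f2* was at 0.05 and did not pass. The summed signal was 0.886 to 1.08 in WT females and 0.784 to 1.01 in mutants. The muscle sum was 0.817 to 1.26 and 0.81 to 7.62, with 1 of 8 probes higher.

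The probes of the called genes were set, in log2 signal, against log2 of the mesenchyme sum over the 11 *Ftx*-/- eyes, in 4 relations chosen after seeing the data. *Nr2f1* A_66_P114782 followed it, with r = 0.89 (permutation p = 0.00041, adjusted over the 4 relations 0.00164) and rho = 0.85 (permutation p = 0.00173, adjusted 0.00692). In the eyes with the largest sums, eye 1 at 9.12 and eye 5 at 5.97, this probe measured 24900 and 25000, and in those with the smallest, eye 10 at 1.18 and eye 9 at 1.23, it measured 21700 and 20500. Its r was 0.83 both without eyes 1 and 5 and with the slide means taken out (permutation p = 0.00714 and 0.00902). The other *Nr2f1* probe, A_55_P2074281, had r = 0.46 (permutation p = 0.156) and rho = 0.51 (permutation p = 0.115). For *Nr2f2* they were 0.28 (permutation p = 0.401) and 0.36 (permutation p = 0.272), and for *Vax2* 0.21 (permutation p = 0.546) and 0.12 (permutation p = 0.732). After adjustment the p of r was 0.312, 0.535 and 0.546 for these relations, none of which passed. Without eyes 1 and 5 their r was 0.35, 0.6 and 0.31, and with the slide means taken out 0.46, 0.1 and 0.49. How far these tissues account for the changes of the members was not tested.

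The members were also set against each other over the 11 *Ftx*-/- eyes, in 4 relations. For *Vax1* and *Pax2*, both stalk genes, Pearson's r was -0.02 (permutation p = 0.962) and Spearman's rho 0.01 (permutation p = 0.989). For *Vax2* and *Pax2* they were 0.17 (permutation p = 0.63) and -0.1 (permutation p = 0.778). For *Vax2* and *Tbx5*, the ventral and the dorsal retinal gene, they were 0 (permutation p = 0.999) and 0 (permutation p = 1). For *Tbx2* and *Tbx3* they were -0.43 (permutation p = 0.181) and -0.49 (permutation p = 0.131). After Benjamini-Hochberg adjustment over the 4 relations, the permutation p of r was 0.723 for *Tbx2* and *Tbx3* and 0.999 for the other relations. Without the 2 eyes farthest from the median of the first gene, r was 0.41, -0.16, -0.08 and -0.52 in the same order.

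With the slide means taken out, the relation of *Tbx2* and *Tbx3* had the opposite sign, with r = 0.86 (permutation p = 0.0038, eyes permuted within slides; adjusted over the 4 relations 0.0152) and rho = 0.75. Among eyes of 1 slide those with more *Tbx2* signal tended to have more *Tbx3* signal, while slide 2 was low in *Tbx2* and high in *Tbx3* and slide 3 the reverse. The other relations were at -0.13, -0.01 and -0.15 with the slide means taken out. The slides hold 3, 4 and 4 of these eyes, too few for a correlation within 1 slide.

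After these values were seen, all 45 pairs of the 10 members were compared in the same eyes, and 1 pair passed for r with adjustment over the 45 and none for rho. This was *Tbx2* and *Pax2*, with r = 0.9 (permutation p = 0.00017, adjusted 0.00765) and rho = 0.84 (permutation p = 0.00218, adjusted 0.0981). It did not pass without eyes 1 and 3 (r = 0.81, permutation p = 0.0087, adjusted 0.196) or with the slide means taken out (r = 0.56, permutation p = 0.0365, adjusted 0.339), and *Pax2* was close to background in these eyes. For *Bmp7* and *Bmp4*, the next highest, r was 0.72 (permutation p = 0.0117, adjusted 0.263) and rho 0.57 (permutation p = 0.071, adjusted 0.644), and without eyes 1 and 8 r was 0.42. Once the slide means were taken out, their r was 0.75 (permutation p = 0.00319, adjusted 0.0583) and rho 0.84 (permutation p = 0.00455, adjusted 0.102). With the slide means taken out, 1 of the 45 pairs passed, *Vax2* and *Nr2f1*, with r = 0.69 and rho = 0.94 (permutation p = 0.00038 and 0.00038, adjusted 0.0171 and 0.0171), beside r = 0.52 over all eyes as they stand (adjusted 0.711) and 0.82 without eyes 2 and 3 (adjusted 0.196). *Tbx2* and *Tbx3* did not pass there when adjusted over the 45 pairs (0.0583).

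**Figure D4:**
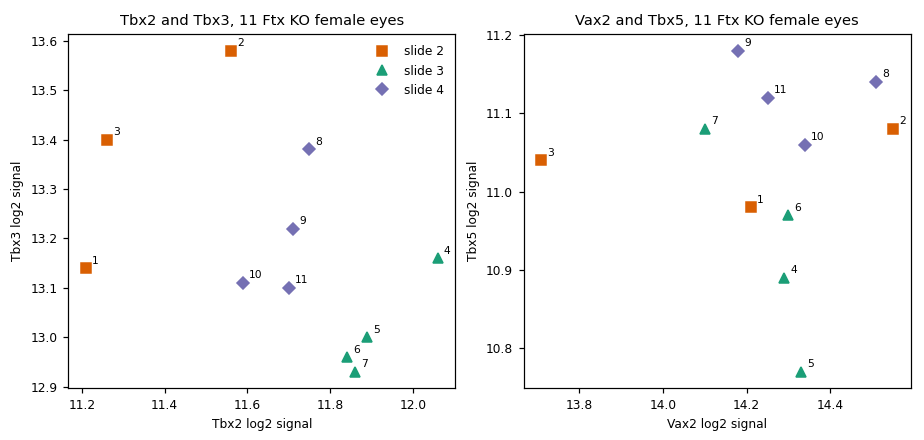
Log2 signal of *Tbx3* against *Tbx2* and of *Tbx5* against *Vax2* in the 11 *Ftx*-/- eyes, each point labelled with the number of its eye, shapes and colours giving the slide. In the panel of *Tbx2* and *Tbx3* the slides form separate groups, and r over all eyes is -0.43 but 0.86 once the slide means are taken out; in the other panel r is 0.

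Over all 20 eyes, with group means taken out, the genes most like *Vax2* among 18545 named probes were *Usf2* (r = 0.94), *Mms22l* (r = 0.88) and *Pak4* (r = 0.88). Those most like *Tbx5* were *Stk32a* (r = 0.88), *Akap13* (r = 0.87) and *Nhs* (r = 0.86). Those most like *Pax2* were *Erich1* (r = 0.92), *Krt2* (r = 0.87) and *Wnt1* (r = 0.87). These are the highest of 18545 values over eyes that share slides and are descriptions only.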

How the data were processed

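Total RNA of each E13.5 eye was hybridised to 1-colour (Cy3) Agilent arrays. The authors deposited spot intensity values that Feature Extraction 11.0.1.1, per the file headers, had corrected for background, with flags and mm9 probe positions. Their series table holds rounded copies of these values, with no normalization across arrays, and served as an alternative on the log2 scale. Here the intensities were normalized by the quantile-spline method of affy that the study names (100 quantiles, 5 iterations), written out in R 4.3.3. Spots flagged as non-uniform (120) or as outliers (5639) and 3671 control spots were left out. Log2 signals were averaged over the spots of a probe, then over both arrays of an eye. Kept were 29558 probes well above background in most eyes of at least 2 of 4 groups. The 4 groups were compared with limma 3.58.1 (trended variance) in 1 fit over 20 eyes, with Benjamini-Hochberg adjustment over all kept probes and calls at 0.05. The fit was tested on simulated data. The number of eyes limits the precision, with a median standard error of 0.128 for the member probes in females and 0.161 in males. Relations used 100000 permutations, two-sided.

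Members were matched by gene name. Of their 15 probes, 14 carry a RefSeq accession that the reference table gives the same symbol. All members were described, and from the 4 pathway lists up to 4 of the largest rises and of the largest falls past the threshold, other than some that are not reported here; *Id1*, *Id2*, *Id3*, *Gli1*, *Aldh1a1*, *Aldh1a3*, *Pou4f2* and the named retinal neuron markers were added after their values were seen. The members and lists were chosen with earlier results of these data known. The alternatives were other normalizations, filters and arrays, the 2 groups alone, slide, scan or replicate number as a block, omission of single WT or *Ftx*-/Y eyes, the t-test and limits of the study's methods and, chosen after seeing the data, the *Ftx*-/- eyes of 1 slide at a time. The relations to mesenchyme markers and those over all pairs of members were also added then. RT-qPCR and allele-specific results were not analysed here.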

Additional observations from a re-analysis of the deposited data

How the results depend on the processing

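Of 12 member probes, 3 passed in females with the main settings. Under other normalizations (75th percentile, quantile, normexp with quantile, the series table), filters, arrays and the 2 groups alone the number was 2 to 4. It was 0 with the slide as a fixed block, the slide as a random block or the scan as a fixed block. It was 1 with the methods' t-test and fold limits, where 7097 of all probes passed, and 0 with that test after Benjamini-Hochberg adjustment (4955 of all probes). Leaving out 1 WT or *Ftx*-/Y eye gave 0 to 3 member probes, with 0 without WT female eye 2, and 4425 to 8942 of all probes. With the *Ftx*-/- eyes of slide 2 alone 5 passed, with *Bmp4*, *Tbx2*, *Tbx3* and both probes of *Nr2f1*. With slide 3 alone 3 did, with slide 4 alone 1. The shares of all probes for single slides are not set beside these counts, which therefore say nothing particular about the members. *Vax2*, *Nr2f2* and *Nr2f1* A_55_P2074281 kept their direction in 28 of 28 alternatives, with log2 fold changes of 0.27 to 0.64, 0.18 to 0.58 and 0.11 to 0.44. So did *Nr2f1* A_66_P114782, at 0.01 to 0.43. The other tested member probes took both signs in females. *Tbx5* ran from -0.24 to 0.16, *Tbx2* from -0.6 to 0.02 and *Tbx3* from -0.11 to 0.41. *Bmp4* ran from -0.04 to 0.48, *Bmp7* from -0.01 to 0.33 and *Pax2* from -0.53 to 1.26. The *Vax1* probes ran from -0.39 to 0.09 and from -0.45 to 0.2. The count over all probes in females was 8714, beside 46 with the slide and 44 with the scan as a fixed block, 4093 with the slide as a random block, 3773 with the series table and 4925 with the 500 filter (14052 tested). Without any filter 4 member probes passed, the paired box probe of *Pax2* among them, which is close to background.

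Males, the sex difference and the WT sexes gave 0 member probes in all alternatives, leaving out each WT or *Ftx*-/Y eye included (0 to 0; over all probes 0 to 720 in males, 0 to 7 for the sex difference and 96 to 263 for the WT sexes, the highest without WT male eye 3, WT male eye 3 and WT female eye 4), other than the methods' fold limits on the limma fit in males (1, *Vax1*). The sex difference was not run with the methods' t-test, which compares 2 groups.

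The replicate number as a block gave 0 member probes in females (0 of all probes). Same-numbered eyes did not deviate together (correlations of -0.27, 0.12 and -0.17 in females), so the numbers were not taken to pair the eyes.

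The relation of *Tbx2* and *Tbx3* went from -0.43 to 0.86 with the slide means taken out and to 0.43 in the series table. That of *Vax2* and *Tbx5* went from 0 to 0.82 in the series table (permutation p adjusted 0.0106), whose values are not normalized between arrays. That of *Vax1* and *Pax2* was -0.02 and became 0.41 without eyes 4 and 11 and 0.3 in the series table. That of *Vax2* and *Pax2* was 0.17 and became -0.16 without eyes 2 and 3 and -0.01 with the slide means taken out. Among all 45 pairs, *Tbx2* and *Pax2* had r of 0.56 to 0.9 over the alternatives. The pair passed with quantile normalization and in the series table as well (permutation p adjusted 0.00855 and 0.0119), and 13 pairs passed in the series table. It did not pass with the 75th percentile or with normexp (permutation p adjusted 0.0657 and 0.0873). The cause was not tested.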
